A study of Arvicanthis niloticus with 5 samples.

Results

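The genes described here carry sugars, lactate, organic ions and ascorbate across cell membranes in the eye of the Nile rat, a day-active African rodent. They are the named genes of solute carrier families SLC2, SLC5, SLC16, SLC22 and SLC23, together with Bsg (basigin), and they were chosen by gene symbol alone, without regard to level. By this rule 38 of the 13982 named genes were members: 10 of SLC2, 6 of SLC5, 11 of SLC16, 8 of SLC22, 2 of SLC23, and Bsg. RNA of whole eyes was sequenced from wild-type animals, listed as 5 samples of 1 group with no treatment. The labels name neither age nor time of day. Per the labels, the RNA of 5 rats was pooled into the library, and the expression table holds 1 value per transcript for the whole series. Whether that value comes from a single library or adds up the listed samples is not stated, and it is treated here as 1 pool. The data therefore hold no comparison between animals or conditions and no replicate error. Levels are in FPKM, fragments per kilobase of transcript scaled to 1000000 mapped fragments, and the level of a gene is the sum over its transcripts. Brackets give 95% intervals that cover counting error only.

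SLC2 proteins (GLUTs) let sugars move down their gradient, whereas most SLC5 proteins use the sodium gradient to pull sugars, inositol or vitamins into the cell. The proton-linked members of SLC16 (MCTs) carry lactate and pyruvate, and several of them reach the cell surface only with a basigin-type glycoprotein. SLC22 proteins move charged drugs, metabolites and carnitine, and SLC23 proteins carry vitamin C. The retina turns much of its glucose into lactate, the photoreceptor layer has no vessels of its own, and the lens has none at all, so fuel must cross the retinal pigment epithelium, the vessel wall or the lens surface through such carriers.

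Levels were concentrated in a few genes. The 38 genes summed to 578 FPKM [574 to 582], which was 0.235% [0.233 to 0.236] of the FPKM on all genes with a symbol, and Bsg and Slc2a1 together held 52.5% of that sum. The 10 highest held 81.5%. Both shares add the 2 transcripts of Bsg, and they would be lower with the longer one alone, at 103.6 FPKM. Of the 38 genes, 37 reached FPKM 1, or 97.4%, beside 93.2% of all named genes, so detection was near the background. FPKM 0.5 was reached by all 38 (beside 99.0%) and FPKM 5 by 17 of the 38 (beside 59.8%). FPKM 10 was reached by 10 of them (26.3%, beside 34.0% of all named genes). FPKM 100 was reached by Bsg and Slc2a1 (5.26%, beside 2.21%). The median was 4.37 FPKM, beside 6.50 FPKM for all named genes, 6.75 FPKM for the 195 other SLC genes and 7.92 FPKM for the 37 measured mitochondrial carriers of SLC25. A level above the median of all named genes was found for 13 of the 38 (34.2%, beside 50.0%). With 1 pool these differences could not be tested.

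**Figure D1:**
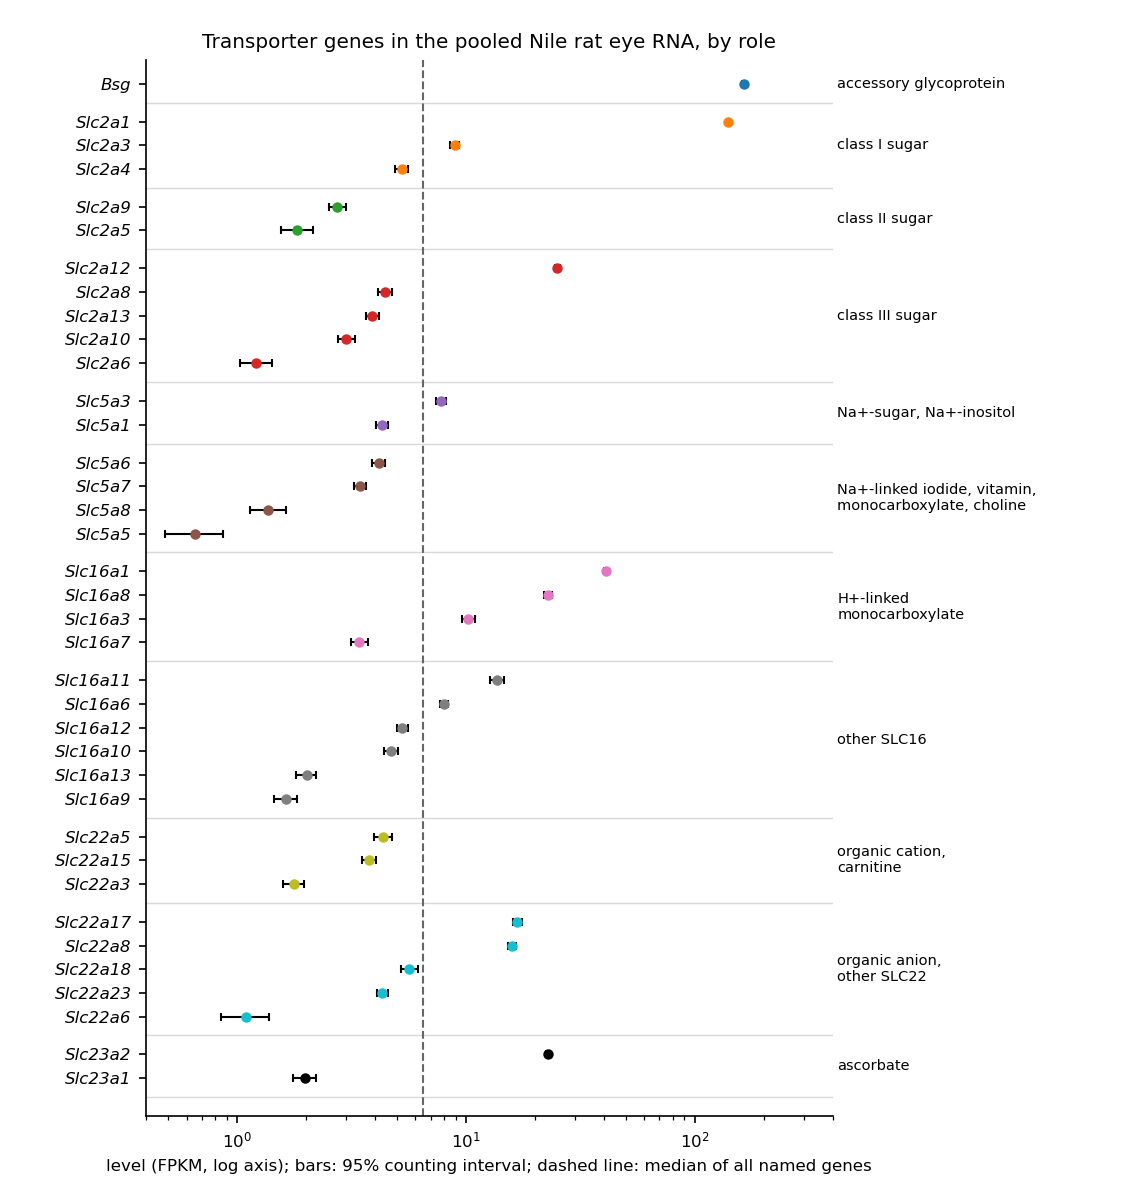
Level of 37 of the 38 genes in FPKM (horizontal log axis), grouped by role, with 95% counting intervals as bars; the dashed line is the median of all named genes, 6.50 FPKM. Bsg and Slc2a1 stand above 100 FPKM, 13 genes lie to the right of the line, and Slc5a5 is the single gene below FPKM 1.

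**Figure D2:**
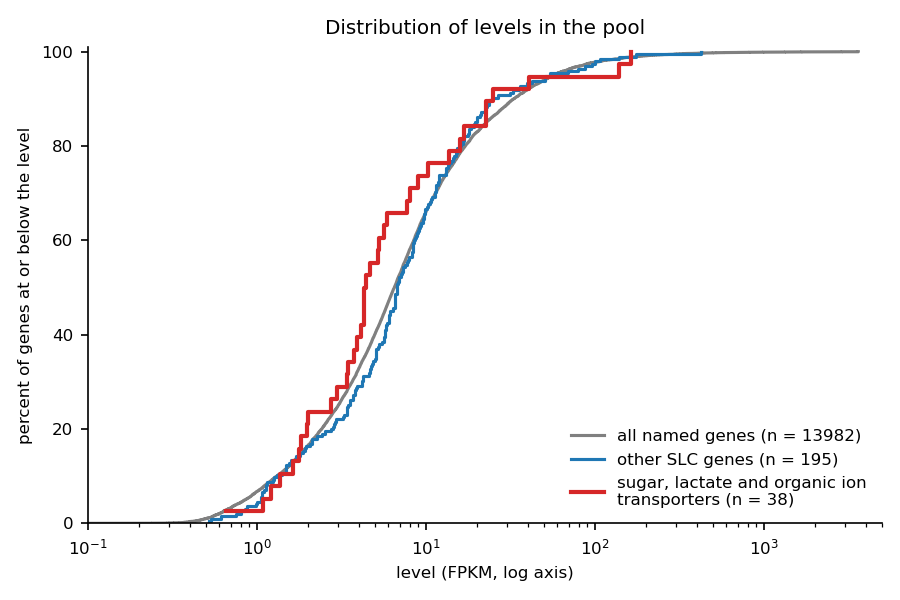
Percent of genes (vertical axis) at or below each level in FPKM (horizontal log axis) for the 38 transporter genes, the 195 other SLC genes and all 13982 named genes. The transporter curve lies to the left of the others around its median of 4.37 FPKM and has 2 genes above 100 FPKM.

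The eye tissue was represented by its defining markers. All 5 lens markers lay between 194 and 1263 FPKM, with Cryaa and Bfsp1 highest, and all 5 photoreceptor markers between 139 and 344 FPKM, with Gnat1 and Pdc highest. The measured markers of the pigment epithelium (5 of 6) lay between 26.9 and 432 FPKM, led by Rlbp1 and Rpe65. Those of Müller glia (5 of 5) lay between 72.6 and 818 FPKM, led by Apoe and Rlbp1, which is shared with the pigment epithelium list. The levels of Apoe, Cryaa and Lim2 are each the sum of 2 transcripts, the longer of 299, 676 and 422 nt. Each sum is too high if its transcripts are pieces of the same mRNA. Of the cornea markers (2 of 4 measured), Krt12 was at 91.0 and Kera at 55.1 FPKM. Blood vessel markers (6 of 7 measured) were lower, at 2.81 to 12.9 FPKM, led by Kdr and Cldn5. Red blood cell markers (3 of 5 measured) ran from 1.59 FPKM for Alas2 to 112 and 158 FPKM for the globins Hbb-b1 and Hba-a1. In whole-eye RNA, few cells of a type and little RNA per cell cannot be told apart.

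Among the glucose carriers, Slc2a1 was far above the rest. Slc2a1 encodes GLUT1, the basal glucose carrier of the pigment epithelium and of barrier-forming vessels, and stood at 139.6 FPKM [137.7 to 141.4] on 1 transcript of 2370 nt and 21487 fragments. It lay above 98.6% of named genes. Slc2a3 encodes GLUT3, the high-affinity carrier of neurons, and stood at 8.93 FPKM [8.55 to 9.31]. Slc2a4 encodes GLUT4, the insulin-responsive carrier of muscle and fat, and stood at 5.22 FPKM [4.91 to 5.55]. Slc2a1 was thus 15.6-fold [15.0 to 16.3] above Slc2a3 and 26.7-fold [25.1 to 28.4] above Slc2a4. It was also 2.48-fold [2.42 to 2.53] above the other 9 SLC2 genes summed, which came to 56.3 FPKM. Beside Slc2a4, the skeletal muscle markers (4 of 5 measured) were at 2.64 to 174 FPKM, led by Tnnc2 and Mb. The fat cell markers (3 of 4 measured) were at 2.27 to 18.3 FPKM, led by Adipoq and Cidec. Their part in the level of Slc2a4 was not tested. No transcript carried the symbol of Slc2a2, the low-affinity glucose carrier GLUT2, so it was not analysed here.

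The next glucose carrier in order was Slc2a12. It encodes GLUT12, a class III facilitator that was at 25.1 FPKM [24.6 to 25.6] on a transcript of 5161 nt, 5.56-fold [5.42 to 5.70] below Slc2a1. By itself it lay below the sum of the 8 remaining SLC2 genes, which came to 31.2 FPKM (ratio 0.803 [0.777 to 0.830]). The other class III genes lay lower. Slc2a8, an intracellular sugar carrier, was at 4.42 FPKM [4.11 to 4.76], and Slc2a13, the proton-coupled inositol carrier, at 3.90 FPKM [3.65 to 4.15]. Slc2a10, mutated in arterial tortuosity syndrome, was at 2.99 FPKM [2.74 to 3.26]. Slc2a6, a carrier of intracellular membranes, was lowest at 1.21 FPKM [1.02 to 1.42].

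Class II carriers, which take up fructose or urate, were low. The urate carrier Slc2a9 was at 2.74 FPKM [2.52 to 2.97] and the fructose carrier Slc2a5 at 1.83 FPKM [1.55 to 2.13]. Neither lay above the median of all named genes, beside 34.2% of the 38 genes and 50.0% of all named genes. The intervals of Slc2a9 and Slc2a5 did not overlap. Slc2a7 was not analysed here, since no transcript carried its symbol.

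Of 9 listed sodium-driven sugar and inositol carriers, 2 were measured, and both were at lower levels than the leading facilitators. No transcript carried the symbols of Slc5a2, Slc5a9, Slc5a10 or Slc5a11, so these were not analysed here. Slc5a3 encodes the sodium and myo-inositol cotransporter, which loads cells with inositol as an osmolyte. It was the highest measured SLC5 gene at 7.76 FPKM [7.37 to 8.16]. Slc5a1 encodes the sodium and glucose cotransporter SGLT1 and was at 4.31 FPKM [4.05 to 4.57], 1.80-fold [1.66 to 1.95] below Slc5a3 and 32.4-fold [30.5 to 34.5] below Slc2a1. Of the inositol genes listed, Cdipt, which builds phosphatidylinositol, was at 28.3 FPKM, and Impa1, which frees inositol from its phosphate, at 26.9 FPKM. Isyna1, which makes inositol phosphate from glucose phosphate, was at 5.06 FPKM, below Slc5a3.

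The SLC5 carriers of vitamins, choline and anions held the lowest member. Slc5a6, which takes up biotin and pantothenate, was at 4.15 FPKM [3.86 to 4.44]. Slc5a7, the high-affinity choline carrier of cholinergic neurons, was at 3.45 FPKM [3.24 to 3.66]. Slc5a8, a sodium-linked lactate carrier, was at 1.37 FPKM [1.14 to 1.63]. Slc5a5, the iodide carrier of the thyroid, was at 0.653 FPKM [0.483 to 0.863] on 49 fragments, the single gene of the 38 whose interval lay wholly below FPKM 1.

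All 4 proton-linked lactate carriers were measured, and their order was clear of counting error at each step. Slc16a1 encodes MCT1, the most widely expressed lactate carrier, and was highest at 40.8 FPKM [39.9 to 41.6]. Slc16a8 encodes MCT3, which in the eye marks the basolateral side of the pigment epithelium, and was at 22.8 FPKM [21.9 to 23.7]. Slc16a3 encodes MCT4, a carrier of strongly glycolytic cells, and was at 10.2 FPKM [9.58 to 10.9]. Slc16a7 encodes MCT2, a high-affinity carrier of neurons, and was at 3.42 FPKM [3.14 to 3.71]. Slc16a1 was 1.79-fold [1.72 to 1.87] above Slc16a8, Slc16a8 was 2.22-fold [2.06 to 2.40] above Slc16a3, and Slc16a3 was 3.00-fold [2.70 to 3.33] above Slc16a7. The part of the pigment epithelium, whose markers are given above, in the level of Slc16a8 was not tested. Of the 4, 3 lay above the median of all named genes (75%, beside 50.0% of all named genes), and Slc16a7 lay below it.

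Basigin was higher than the 4 proton-linked lactate carriers, 1 by 1 and summed. Bsg was carried by 2 transcripts, of 2112 nt at 103.6 FPKM [101.9 to 105.3] and of 905 nt at 60.2 FPKM [58.2 to 62.2], which summed to 164 FPKM [161 to 166]. The sum was 2.12-fold [2.07 to 2.17] above the 4 lactate carriers together (77.2 FPKM). With the longer transcript alone the ratio was 1.34 [1.31 to 1.38], since the sum is too high if both transcripts are pieces of 1 mRNA. The place of Bsg above Slc2a1 also rested on the sum: Bsg was 1.17-fold [1.15 to 1.20] above Slc2a1 as a sum, but Slc2a1 was 1.35-fold [1.32 to 1.38] above the longer Bsg transcript. Basigin is made in a long form, known from the retina, and a widely expressed short form, and the table does not say which form either transcript encodes.

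The relatives and partners of basigin were lower than Bsg or, for Ppia, higher. Nptn (neuroplastin) was at 44.4 FPKM [43.4 to 45.5] and Emb (embigin), a partner of MCT2, at 31.7 FPKM [30.8 to 32.7]. Bsg was 3.69-fold [3.58 to 3.79] above Nptn and 5.16-fold [4.99 to 5.33] above Emb. Nxnl1, which encodes the rod-derived cone viability factor, a ligand of the long basigin form, was at 67.4 FPKM [65.0 to 69.9]. The Nxnl1 level is the sum of 2 transcripts, the longer of 910 nt. Nxnl2, the relative of Nxnl1, was at 4.51 FPKM [4.06 to 5.01]. Ppia (cyclophilin A), another basigin ligand, was at 434.7 FPKM on a transcript of 451 nt. All 5 genes of this list reached FPKM 1, beside 93.2% of all named genes. Of the 5, 4 lay above the median of all named genes (80%, beside 50.0%).

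**Figure D3:**
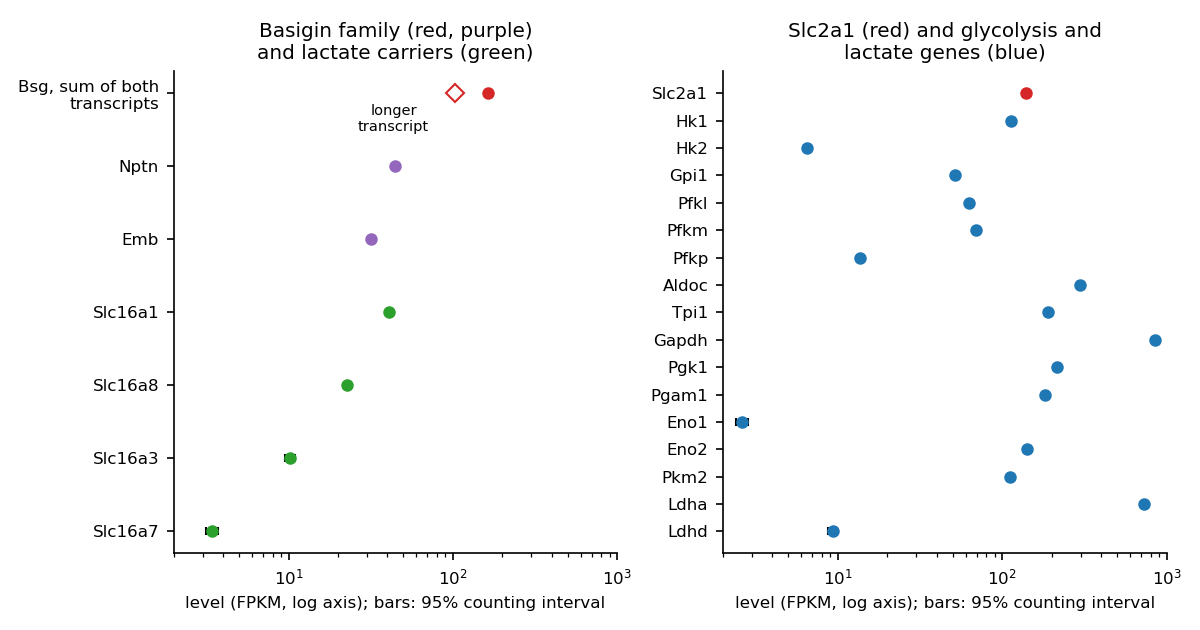
Left, levels in FPKM (log axis) of Bsg, its relatives Nptn and Emb, and the 4 proton-linked lactate carriers; the open diamond is the longer Bsg transcript alone, at 103.6 FPKM. Right, Slc2a1 beside the measured glycolysis and lactate genes, of which Gapdh and Ldha stand highest at 849 and 731 FPKM; bars are 95% counting intervals, mostly narrower than the symbols.

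Genes of the path from glucose to lactate lay on both sides of Slc2a1. Of 21 listed symbols for glycolysis and lactate, 16 were measured, with a median of 112 FPKM beside 6.50 FPKM for all named genes. All 16 reached FPKM 1, beside 93.2% of all named genes, and 13 reached FPKM 10 (81.25%, beside 34.0%). Gapdh was at 849 FPKM and Ldha, the lactate dehydrogenase subunit that favours lactate, at 731 FPKM. Ldha was 9.46-fold [9.28 to 9.65] above the 4 proton-linked carriers summed. Hk1, which traps glucose inside the cell, was at 112 FPKM, close to Slc2a1, which was 1.24-fold [1.22 to 1.26] higher. Hk2 was at 6.46 FPKM, 17.4-fold [16.7 to 18.2] below Hk1. Of the list on control of glucose carriers, Txnip, an arrestin-like protein that removes GLUT1 from the surface, was at 33.6 FPKM and Tbc1d1, which holds GLUT4 inside the cell, at 4.85 FPKM. All 5 measured of the 7 symbols on that list reached FPKM 1, beside 93.2% of all named genes. Txnip alone was above the median of all named genes (20%, beside 50.0%).

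The other SLC16 genes carry substrates besides lactate, or substrates not yet settled. Slc16a11, a gene linked to human type 2 diabetes, was highest of the 7 at 13.6 FPKM [12.7 to 14.6], on a short transcript of 897 nt named from the human column alone. Slc16a6, a ketone body carrier, was at 8.01 FPKM [7.67 to 8.37]. Slc16a12, a creatine carrier mutated in a form of juvenile cataract, was at 5.26 FPKM [4.98 to 5.55]. Slc16a10, the aromatic amino acid carrier TAT1, was at 4.70 FPKM [4.36 to 5.05], Slc16a13 at 2.01 FPKM [1.81 to 2.22] and Slc16a9, a carnitine carrier, at 1.63 FPKM [1.45 to 1.83]. Slc16a11 and Slc16a13 are neighbouring genes in the Nile rat RefSeq annotation (assembly mArvNil1.pat.X), and Slc16a11 was 6.78-fold [6.01 to 7.66] above Slc16a13.

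Organic ion carriers of SLC22 were led by an unusual member and an organic anion carrier. Slc22a17, a receptor for the iron-binding protein lipocalin 2, was at 16.8 FPKM [15.998 to 17.6]. Slc22a8 encodes OAT3, which exports organic anions at the blood-retina barrier, and was at 15.9 FPKM [15.3 to 16.5]. The ratio of Slc22a17 to Slc22a8, 1.06 [0.995 to 1.12], did not exclude equal levels. Slc22a6 encodes OAT1, the main organic anion carrier of the kidney, and was at 1.09 FPKM [0.848 to 1.38] on 68.5 fragments. Slc22a6 and Slc22a8 lie next to each other in the same annotation, and Slc22a8 was 14.6-fold [11.5 to 18.5] above Slc22a6. Slc22a18 was at 5.66 FPKM [5.20 to 6.14] and Slc22a23 at 4.31 FPKM [4.07 to 4.56].

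Of 8 listed carriers of organic cations and carnitine, 3 were measured. None of the 3 lay above the median of all named genes, beside 50.0% of all named genes. Slc22a5 encodes OCTN2, the high-affinity carnitine carrier, and was at 4.33 FPKM [3.94 to 4.74]. Slc22a15 was at 3.77 FPKM [3.51 to 4.04]. Slc22a3 encodes OCT3, a carrier of monoamines and other organic cations, and was at 1.77 FPKM [1.59 to 1.97]. The symbols of Slc22a2, Slc22a4 and Slc22a16 were on no transcript, and these genes were not analysed here.

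Of the vitamin C carriers, the form of neurons was well above the form of kidney and gut. Slc23a2 encodes SVCT2, the neuronal and ocular ascorbate carrier, and was at 22.8 FPKM [22.3 to 23.3] on the longest transcript of the set, 6439 nt. Slc23a1 encodes SVCT1, the ascorbate carrier of kidney and gut epithelium, and was at 1.98 FPKM [1.76 to 2.22]. Slc23a2 was 11.5-fold [10.3 to 12.9] above Slc23a1. Slc23a2 and Slc16a8 had the closest levels of any neighbours among the 10 highest genes, with a ratio of 1.00.

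Family totals depended on whether transcript length was taken into account. By FPKM the 10 SLC2 genes held 33.9% of the sum over the 38 genes, Bsg 28.3%, the 11 SLC16 genes 20.5%, the 8 SLC22 genes 9.27%, the 2 SLC23 genes 4.28% and the 6 SLC5 genes 3.75%. By fragments, which are not divided by length, SLC2 held 37.5%, SLC16 20.9%, Bsg 18.4%, SLC23 10.2%, SLC22 8.25% and SLC5 4.75%. SLC2 was highest and SLC5 lowest on both scales, while Bsg and SLC16 changed places, as did SLC22 and SLC23. The place of Bsg above SLC16 by FPKM also rested on the sum of its transcripts, since the longer one alone (103.6 FPKM) lay below the 118 FPKM of SLC16.

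**Figure D4:**
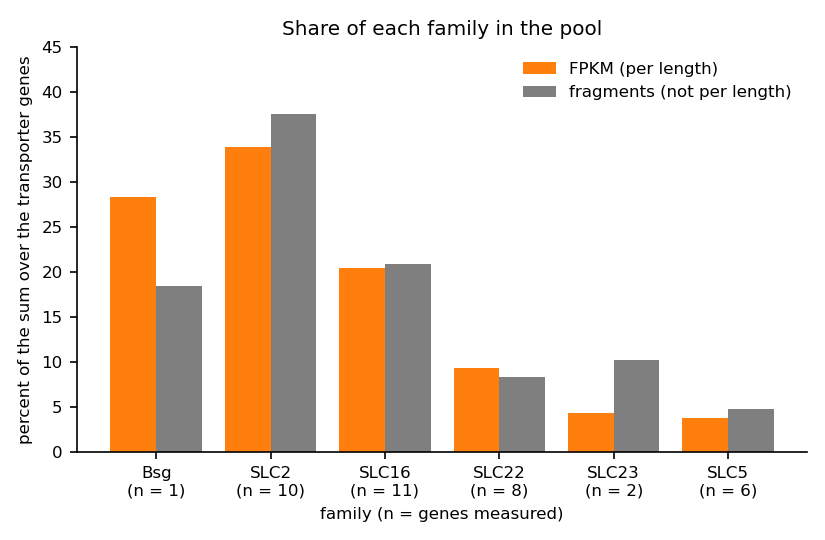
Percent of the sum over the 38 genes (vertical axis) held by each family, as FPKM (per length, orange) and as fragments (not per length, grey), with the number of genes below each name. SLC2 is highest on both scales at 33.9% and 37.5%, and Bsg falls from 28.3% to 18.4% without division by length.

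The depth behind these values was uneven. The 38 genes rested on 49 to 21487 fragments each, with a median of 844, and the half-width of the counting interval was 6.81% of the level at the median gene and 29.1% for Slc5a5. When the genes were ordered by level, 23 of the 37 steps from 1 gene to the next had a ratio whose interval included 1. Such steps were common below 6 FPKM: Slc22a5, Slc22a23 and Slc5a1, for example, lay at 4.33, 4.31 and 4.31 FPKM. A single transcript carried each gene except Bsg. Member transcripts had a median length of 2715 nt, beside 2156 nt for all named transcripts, and 3 were under 1000 nt, those of Slc16a11 and Slc22a6 and the shorter one of Bsg. Fragment counts were fractional on 12 of the 39 transcripts (30.8%, beside 42.9% of named transcripts), among them Slc2a1, Slc16a1, Slc16a8 and both of Bsg. The division of their fragments with other transcripts is uncertain.

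Genes without a symbol on any transcript could not be measured. RefSeq lists 51 symbols of these families for the Nile rat, and 35 of them were on a transcript. Slc2a3, Slc22a5 and Slc22a18 were measured but are not among those symbols. The other 16 RefSeq symbols were not analysed here: Slc2a2, Slc2a7, Slc5a2, Slc5a9, Slc5a10, Slc5a11, Slc5a12, Slc16a4, Slc16a5, Slc16a14, Slc22a2, Slc22a4, Slc22a7, Slc22a14, Slc22a16 and Slc23a3. The symbols given by the species differed on 1 of the 39 member transcripts. On 9 of the 39 only 1 species gave a symbol, so no difference could show there. All 3 species gave a symbol on 17. The symbol came from the mouse column for 33 genes, from the rat column for Slc5a6, Slc16a6 and Slc2a13, and from the human column for Slc2a9 and Slc16a11.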

How the data were processed

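RNA of 5 Nile rats was pooled for the library, per the labels' protocols, while 5 samples are listed; whether the single value column is 1 library or adds up the samples is not stated, and it was treated as 1 pool. The file deposited by the authors gives, per transcript, FPKM, a length and an estimated count of fragments that need not be whole. Bowtie was used, per the submitters' processing notes; for its version, the assembly and any genome build: not given in the sources used here. The total of mapped fragments is 64967222, per the file headers. The deposited FPKM values were rebuilt from count, length and this total within a relative 1e-05. The estimated counts sum to 2.67% more than it.

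Transcripts took the first symbol in the order mouse, rat, human of the deposited ortholog table that is not an Ensembl or GenBank identifier (15454 transcripts), and FPKM was summed per gene. Level intervals are 95% gamma intervals for Poisson counts, and ratios and shares carry delta-method intervals. Level and ratio intervals were tried on Poisson counts simulated around the observed counts, which cannot check the Poisson assumption itself. Share intervals and the division of fragments between transcripts were not part of that simulation. All intervals cover counting error only, not animals, libraries or PCR copies. At 1000 nt, FPKM 1 is 65.0 fragments and a count of 0 allows 3, or 0.0462 FPKM. No test over animals was possible and no p-value is given. Named were all genes at FPKM 10 or more, the lactate, class I sugar and ascorbate carriers, the highest and lowest of each role, genes under FPKM 1, and the 2 highest of each other list; further genes were chosen after their values were seen. A single gene of the set is not reported here by itself but enters the counts and sums. The genes, lists and ratios were chosen with earlier results of these data known. Alternatives were other ways to combine transcripts, other thresholds, stricter naming, a pseudocount and fragments in place of FPKM. Stricter naming left out transcripts whose species symbols differed, but kept those with a symbol from 1 species only. Intervals used SciPy 1.17.1, and tables and plots used pandas 2.3.3, Matplotlib 3.10.9 and NumPy 2.4.6 under Python 3.11.15.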

Additional observations from a re-analysis of the deposited data

Results flagged for a closer look

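A large signal lay in transcripts that no comparison used: those without a gene symbol held 52.8% of all fragments and 82.0% of all FPKM. Whether any of them belong to the carrier families was not tested, so the levels of the 38 genes cover named transcripts only.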

How the results depend on the processing

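The ratio of Slc2a1 to Slc2a3 (log2 3.97) was 3.82 with a pseudocount of 1 FPKM. Neither the way transcripts were combined, nor the length limit, nor stricter naming could change it, since 1 long transcript with matching symbols carried each gene. The ratio of Slc16a1 to Slc16a8 (log2 0.84) was 0.81 with that pseudocount, within its counting interval, and the same holds for it. The ratio of Bsg to the 4 proton-linked carriers (log2 1.08) was 0.42 with the highest transcript and 0.23 with a length-weighted mean, and stayed positive. The number of genes detected, 37 of 38, was 17 at FPKM 5, where 59.8% of named genes were detected; at FPKM 0.5 it was 38, and with stricter naming 36 of 37. The share of named FPKM (0.235%) was 0.221% with the highest transcript, 0.223% with a length-weighted mean, 0.265% without transcripts under 500 nt, 0.278% with stricter naming and 0.306% as fragments. No replicate could be left out of the 1 pool. No paired analysis was possible because the table has no column per sample. Depth limited mainly Slc5a5 and Slc22a6, the genes with the fewest fragments.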

Other observations

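Genes that use the carried substrates were measured alongside. Of 8 listed symbols for the entry of pyruvate into mitochondrial metabolism, 5 were measured, with a median of 14.2 FPKM. All 5 reached FPKM 1, beside 93.2% of all named genes. Pdhb, a subunit of pyruvate dehydrogenase, was highest at 60.2 FPKM [59.1 to 61.4]. Of its inhibitory kinases, Pdk2 was at 20.8 FPKM [19.96 to 21.6], Pdk1 at 14.2 FPKM [13.7 to 14.7], Pdk3 at 6.96 FPKM [6.59 to 7.34] and Pdk4 at 4.39 FPKM [4.11 to 4.68].

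Of the 12 symbols for users of inositol, carnitine, creatine and ascorbate, 10 were measured, with a median of 6.56 FPKM. FPKM 1 was reached by 9 of the 10 (90%, beside 93.2% of all named genes). The carnitine palmitoyltransferases Cpt1a, Cpt2 and Cpt1b were at 8.83, 6.06 and 4.78 FPKM, beside 4.33 FPKM for the carnitine carrier Slc22a5. Bbox1, the last enzyme of carnitine synthesis, was the single measured gene of this list below FPKM 1, at 0.544 FPKM [0.261 to 1.00] on a transcript of 283 nt. Gamt and Gatm, the enzymes of creatine synthesis, were at 13.8 and 7.06 FPKM, beside 5.26 FPKM for the creatine carrier Slc16a12. Gulo, the last enzyme of vitamin C synthesis in rodents, best known from liver, was at 5.91 FPKM [5.52 to 6.31] on a transcript of 2273 nt in the eye pool.

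Eno1, the widely expressed enolase, was at 2.61 FPKM [2.39 to 2.85], while the neuronal form Eno2 was at 141 FPKM [139 to 143]. The Eno1 value rests on 1 named transcript of 3011 nt. Whether transcripts without a symbol, which held 52.8% of all fragments, include further Eno1 sequence was not tested. The total level of Eno1 in the eye is therefore not known from these values. No transcript carried the symbols Aldoa or Ldhb.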
